A study of Arabidopsis thaliana with 4 samples.

Results

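AT3G16670, AT3G05730 and AT2G41090 are 3 Arabidopsis genes known here by their locus names, the first encoding an Ole e 1-like protein, the second a defensin-like protein and the third a calmodulin-like protein. They were chosen from the difference between control and jaw-D plants in these same arrays, as bright probe sets with a large and steady fall, so their own differences are given as a description and carry no test. Each has 1 probe set, out of 22746 probe sets measured and 13513 that the annotation assigns to a single gene. The study hybridised total RNA of shoots, the whole aerial part, from plants 2 weeks old to 4 arrays. There were 2 arrays of Columbia plants, labelled as controls, and 2 arrays of jaw-D, an activation-tagged line. Neither transgene nor treatment is given for the controls, and the labels do not say how many plants went into a sample or whether replicate samples were grown separately. The p-values below therefore rest on a spread between samples that may be no more than technical.

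In activation tagging, an inserted enhancer raises the transcripts of nearby genes. The jaw-D phenotype of crinkled leaves is known to come from raised miR319a, a microRNA that cuts mRNAs of growth-restraining TCP transcription factors. The 3 genes described here are not among those TCP genes. Ole e 1-like proteins are named after the main allergen of olive pollen and are small proteins with a signal peptide and conserved cysteines, found in many plant tissues and often associated with the cell wall. Plant defensins and their relatives are small secreted proteins held together by disulfide bridges, and several of the well-studied ones inhibit fungi. Calmodulin and its relatives bind calcium through EF hands, loops that change the shape of the protein when calcium enters the cell, and pass this signal on to other proteins.

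Values are array intensities, which have no absolute unit, after quantile normalization of the 4 arrays. Array medians before this step lay between 1032 and 1146 units, and log2 values correlated across probe sets at 0.990 and 0.992 within the groups and at 0.980 to 0.984 between them. The 27 probe sets for Bacillus subtilis transcripts, which plant RNA should not bind, reached at most 353 units, and a gene is called near background where neither group mean exceeds that level. Green tissue was well represented. Rubisco activase (RCA) was at 69442 ± 5150 units (control) and 67365 ± 666 (jaw-D) (SD, n = 2 each), with overlapping groups. The antenna gene LHCB4.1 was at 79086 ± 3562 and 71210.2 ± 0 units (SD, n = 2 each, adjusted p 0.317 in limma). Both of its jaw-D arrays lay below both control arrays. Quantile normalization gives equal ranks the same value, so the SD of 0 of LHCB4.1 in jaw-D does not measure its spread. Of the root-hair expansins, EXPA7 was near background on average, at 313 and 304 units, and EXPA18 was at 572 and 433 (adjusted p 0.424 in limma). The guard-cell regulator FMA (FAMA) was at 2022 and 1441 units (adjusted p 0.142 in limma). For EXPA18 and FMA too, both jaw-D arrays lay below both control arrays, as they did for 23.6% of all probe sets. The genes named in this check were 5 of the 21 marker genes listed for it, and the pollen, flower and seed markers were not analysed here by name. The part of tissue makeup in the results below was not tested.

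AT3G16670, the Ole e 1-like gene, was at 18035 and 18300 units on the control arrays and at 1137 and 983 on the jaw-D arrays. Both jaw-D values lay far below both control values, and the deposited intensities before normalization showed the same order, at 18578 and 19088 against 1176 and 1020.4. The group means were 18168 ± 187 and 1059.8 ± 109 units (SD, n = 2 each), so that jaw-D retained 5.83% of the control intensity, a 17.1-fold difference. Over the 4 possible pairs of a control and a jaw-D array the fold ran from 15.9 to 18.6. In bulk tissue, fewer cells that express a gene and less of its RNA per cell cannot be told apart.

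AT3G05730, the defensin-like gene, was at 27863 and 27425 units on the control arrays and at 5079 and 5343 in jaw-D. As deposited it was at 28751 and 28271 against 5140.4 and 5369.9 units. The arrays of each group lay close together and the groups did not overlap. The means were 27644 ± 309.9 and 5211 ± 186 units (SD, n = 2 each), so that jaw-D kept 18.9% of the control intensity, with a fold of 5.30 and a range of 5.13 to 5.49 over the pairs of arrays.

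AT2G41090, the calmodulin-like gene, was at 26229.7 and 27980 units on the control arrays and at 10193 and 10291 on the jaw-D arrays. As deposited it was at 27513.5 and 28809 against 10069 and 10079 units. The jaw-D arrays were nearly equal, the control arrays differed more, and the groups did not overlap. The means were 27105 ± 1238 and 10242 ± 69.3 units (SD, n = 2 each), which left 37.8% of the control intensity in jaw-D, a fold of 2.65 with a range of 2.55 to 2.75.

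**Figure D1:**
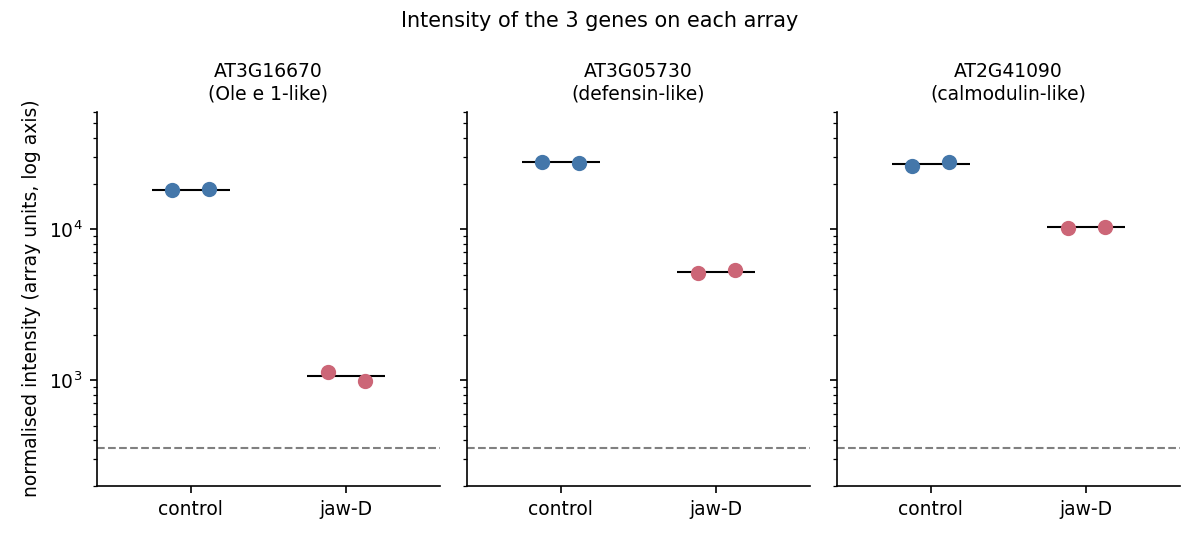
Normalised intensity (log axis, array units) of the 3 genes on each control and jaw-D array; each point is an array, the bar is the group mean of 2 arrays and the dashed line is the highest Bacillus subtilis value of 353 units. The jaw-D points lie below the control points in each panel, and those of AT3G16670, at 1137 and 983 units, come closest to the dashed line.

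The differences of the 3 genes were of unequal size. On the scale of log2(intensity + 302.3), where 302.3 units is the 25th percentile of all deposited values and keeps dim probe sets from dominating, the jaw-D minus control difference was -3.76 ± 0.09 for AT3G16670, -2.34 ± 0.07 for AT3G05730 and -1.38 ± 0.07 for AT2G41090 (± SE from limma). Over the 4 pairs of arrays the fall was 3.67 to 3.86, 2.30 to 2.39 and 1.32 to 1.43 on this log2 scale, ranges that do not overlap between the genes. The pairs share arrays and are not independent. All 3 probe sets had both jaw-D arrays below both control arrays, as did 23.6% of all probe sets, and this count says nothing about the genes, since they were chosen on it.

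Each gene stayed above background in both groups. The lower control array stood at 51.1 times the highest Bacillus subtilis value for AT3G16670, at 77.8 times for AT3G05730 and at 74.4 times for AT2G41090. In jaw-D the lower array stood at 2.79, 14.4 and 28.9 times that value. The pseudocount moved the log2 difference of AT3G16670 more than those of the other genes: it was -4.06 with 0.1 times and -3.10 with 4 times the pseudocount, against -2.40 and -2.17 for AT3G05730 and -1.40 and -1.31 for AT2G41090. The ratios of intensities given above use no pseudocount.

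Spread between arrays of a group was small for each gene, as their selection required. For AT3G16670 the control arrays differed by 0.02 and the jaw-D arrays by 0.16 on the log2 scale. For AT3G05730 these gaps were 0.02 and 0.07, and for AT2G41090 0.09 and 0.01. Which array was higher did not run the same way in the 3 genes: the second jaw-D array was the lower for AT3G16670 and the higher for AT3G05730 and AT2G41090, and the first control array was the higher for AT3G05730 alone. Among the 13513 probe sets with a single gene, ordered by the fall over its SE, the 3 genes took places 1, 2 and 7. Ordered by the smallest fall over the 4 pairs of arrays, AT3G16670 took place 1, AT3G05730 place 4 and AT2G41090 place 18 among the single-gene probe sets. Among all probe sets they took places 1, 8 and 33. AT2G41090 thus stood less far forward on that measure of consistency. These places restate the choice of the genes.

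**Figure D2:**
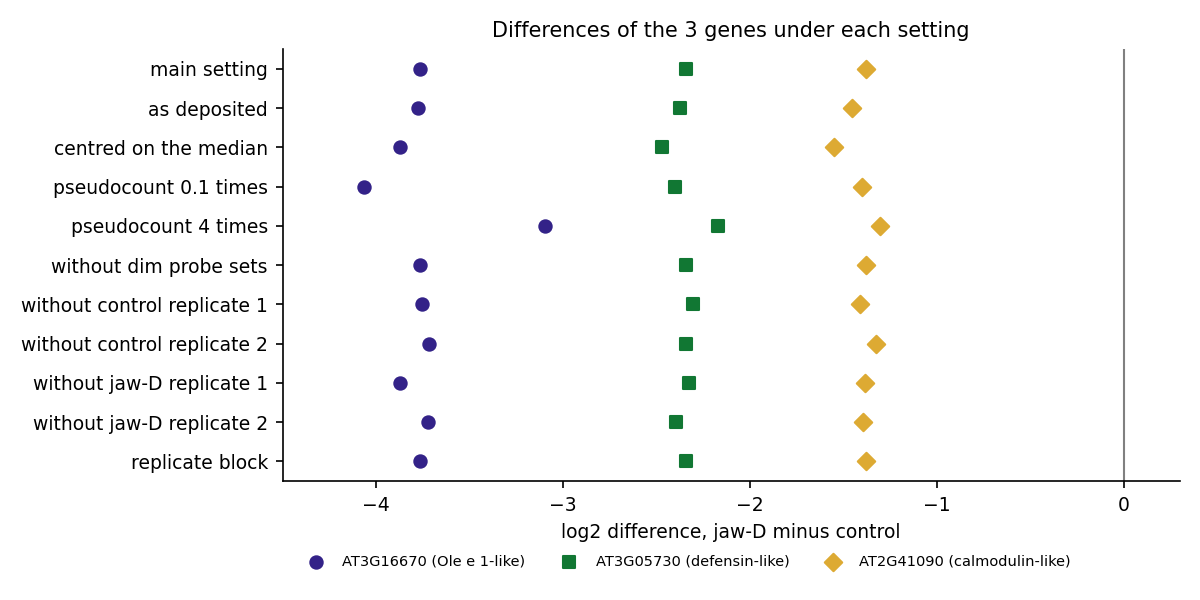
Log2 difference (jaw-D minus control) of each of the 3 genes under the main setting and 10 alternatives, with a line at 0. Every point is negative, the order of the genes is the same in each row, and the widest shift is that of AT3G16670 between the smaller and the larger pseudocount (-4.06 and -3.10). The rows without dim probe sets and with the replicate block equal the main setting by construction.

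The family of each gene was described through a list of relatives, and the gene itself was left out of its list. The lists were drawn up from background knowledge of these families. The defensin list was extended by a search of the gene table for defensin symbols and synonyms. The annotation gives a name to 1 of the 14 measured Ole e 1-like genes and 7 of the 35 calmodulin-like genes. It names 13 of the 15 measured defensins and defensin-like genes. The limma fit compared jaw-D with control over all 22746 probe sets, and an adjusted p under 0.05 is a pass. Over all probe sets 2.54% were lower and 1.64% higher by this rule (4.19% in either direction), and the median log2 difference was 0.01. At an unadjusted p under 0.05, 9.79% of all probe sets were lower and 10.1% higher (19.9% in either direction), which is the background for such counts below.

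Of 22 further loci listed as Ole e 1-like, 14 had a probe set of their own, of which 2 fell, 1 rose and 11 did not pass. That is 14.3% lower and 7.14% higher beside 2.54% and 1.64% over all probe sets, but these shares rest on 2 genes and 1 gene. At an unadjusted p under 0.05 in limma, 5 of the 14 were lower and 1 was higher, beside the 9.79% and 10.1% over all probe sets. AT3G16660, the locus next to AT3G16670, fell. It was at 1908 and 2062 units in the controls against 662 and 913 in jaw-D, a log2 difference of -1.08 ± 0.15 (SE, adjusted p 0.029 in limma). AT3G26960 fell from 2780.4 and 2458 units to 1315 and 1272 (-0.87 ± 0.11, adjusted p 0.0242 in limma). SAH7 (AT4G08685) went the other way. Its intensity rose from 14263 and 13700.3 units to 18154 and 19271 (0.41 ± 0.07, adjusted p 0.0373 in limma). This rise did not pass as deposited (0.33, adjusted p 0.0558) or with each array centred on its median (0.24, adjusted p 0.124). A fit without 1 of the 4 arrays leaves 1 array in a group, so only its log2 differences are given. They were -1.24 to -0.91 for AT3G16660, -0.94 to -0.79 for AT3G26960 and 0.38 to 0.46 for SAH7. Without the variance trend of limma, adjusted p was 0.0716, 0.0684 and 0.122.

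The Ole e 1-like genes that came next by p did not pass. AT5G41050 was at 3250.3 and 3165 units in the controls against 1874 and 2295 in jaw-D (-0.56, adjusted p 0.0608 in limma). It passed with each array centred on its median (-0.59, adjusted p 0.0416) and at the smaller pseudocount (adjusted p 0.042). It also passed with dim probe sets left out before the fit (adjusted p 0.00935). Dim probe sets are those whose mean over the 4 arrays did not exceed 353 units. AT2G16630 was at 2960.1 and 2840.4 against 2339 and 1898 units (-0.41, adjusted p 0.132 in limma, and 0.0466 with dim probe sets left out before the fit). AT5G13140 was at 8924 and 9107 against 8167 and 7894 (-0.16, adjusted p 0.255 in limma), and AT5G45880 was near background. Differences of the 14 genes ran from -1.08 to 0.41 with a median of -0.04. As deposited, the median of the list was 0.02, beside 0.04 for all probe sets. AT3G16670, at -3.76, lay outside the range of the 14 genes. Its distance from AT3G16660 cannot be tested, because it was chosen on this comparison. Both loci are listed in the same family and are neighbours. Whether the probes of the 2 genes bind each other's transcripts was not tested.

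Of 96 further loci listed as defensins or defensin-like, 15 had a probe set of their own, and 8 of these were near background. Of the 15 genes 1 fell, 0 rose and 14 did not pass, that is 6.67% lower. At an unadjusted p under 0.05 in limma, 4 of the 15 were lower and 1 was higher, beside the same 9.79% and 10.1%. The gene that fell, AT2G43530, was at 11373 and 11501 units in the controls against 4865 and 6423 in jaw-D (-0.99 ± 0.13 SE, adjusted p 0.0252 in limma). Without 1 of the arrays its difference was -1.20 to -0.81. Without the variance trend its adjusted p in limma was 0.0778. AT2G43535, the other listed locus beside it in number, was at 2493 and 2124 against 1911 and 2563 units (-0.05, adjusted p 0.92) with overlapping groups.

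Named defensins were split in direction. PDF1.2, a jasmonate-induced defensin, was at 1274 and 895 units in the controls against 451 and 495 in jaw-D (-0.83, adjusted p 0.0675 in limma), and passed with the smaller pseudocount (adjusted p 0.048). PDF1.2b was at 1991 and 1191 against 682 and 952 units (-0.74, adjusted p 0.17), on a probe set whose suffix marks probes shared with similar transcripts. The bright LCR69 (PDF2.2) was at 55137 and 61527 against 74888 and 70865 units (0.32, adjusted p 0.101), and LCR68 (PDF2.3) at 21998 and 25547 against 20260.3 and 20194 (-0.23, adjusted p 0.23). None of these 4 passed here. With dim probe sets left out before the fit, adjusted p in limma was 0.00625 for PDF1.2, 0.0274 for PDF1.2b and 0.00911 for LCR69. The list ran from -0.99 to 0.32 with a median of -0.05. AT3G05730, at -2.34, lay outside it, having been chosen for its fall.

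Of 56 further calmodulin and calmodulin-like loci, 35 had a probe set of their own and 17 of them were near background. CML30, a calmodulin-like gene, fell, 0 rose and 34 did not pass, that is 2.86% lower, near the 2.54% over all probe sets. At an unadjusted p under 0.05 in limma, 2 of the 35 were lower and 3 higher, which as a share is below the 19.9% of all probe sets in either direction. CML30 was at 2156 and 2414 units in the controls against 1393 and 1369 in jaw-D (-0.62 ± 0.11 SE, adjusted p 0.0427 in limma). The call for CML30 ended as deposited (-0.53, adjusted p 0.0532 in limma), at the larger pseudocount (adjusted p 0.053) and without the variance trend (adjusted p 0.0811). With 1 array left out its difference was -0.69 to -0.54.

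The 4 listed loci that came next by p did not pass, and their directions differed. Higher in jaw-D were AT1G12310 at 10625 and 11143 against 12983 and 13585 units (0.28, adjusted p 0.0862 in limma), AT3G10300 at 1906 and 2199 against 2891 and 2717.5 (0.40, adjusted p 0.109), and AT3G10190 at 1334 and 1639 against 1864 and 2101 (0.36, adjusted p 0.218). AT1G12310 and AT3G10300 passed with dim probe sets left out before the fit (adjusted p 0.0485 and 0.0419 in limma). AT3G03430, the second of the 4 by p, was lower in jaw-D without overlap, at 388 and 286 units against 37.1 and 147 (-0.71, adjusted p 0.0904), but both group means were near background. Differences ran from -0.71 to 0.40 over the 35 genes, 18 positive and 17 negative, with a median of 0.01. With each array centred on its median, the median of the list was -0.08, beside -0.06 for all probe sets. AT2G41090, at -1.38, lay outside the range of the 35 genes, having been chosen for its fall. None of the listed calmodulins proper, CAM2 among them, was analysed here by name, so the 35 genes do not include them.

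**Figure D3:**
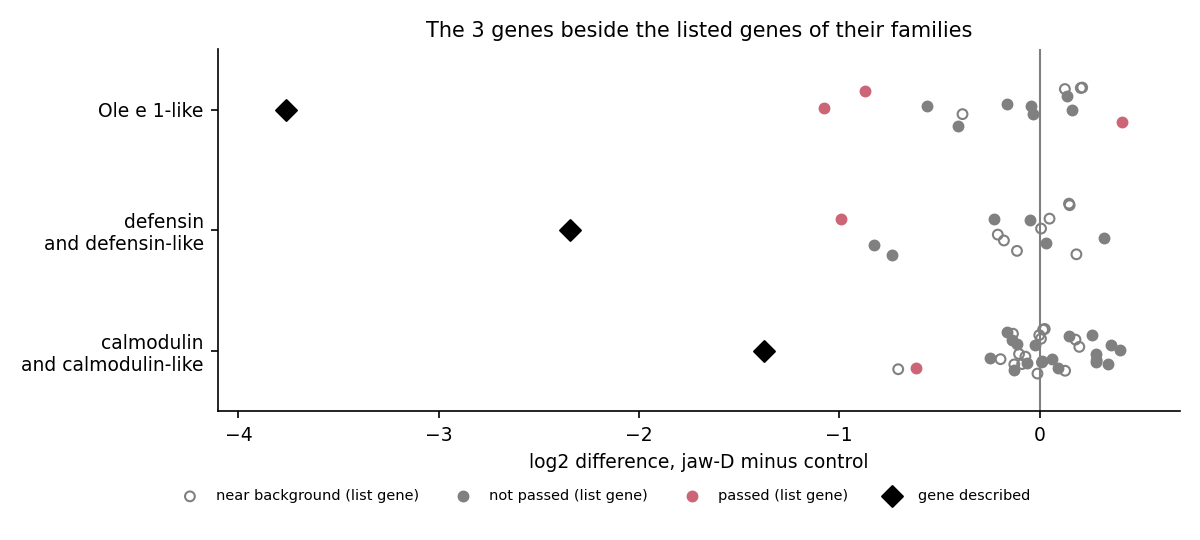
Log2 difference (jaw-D minus control) of each listed gene with a probe set of its own, by family, with the 3 genes described as black diamonds; red points passed (adjusted p under 0.05 in limma), filled grey points did not and open points were near background. Vertical position within a family has no meaning. The diamonds at -3.76, -2.34 and -1.38 lie left of all list genes of their family, whose lowest differences are -1.08, -0.99 and -0.71. The 3 genes were chosen for their fall, so this position follows from the choice.

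The loci on either side of each gene were compared next. AT3G16670 and AT3G05730 lie on chromosome 3, far apart in gene order, and AT2G41090 lies on chromosome 2. Of the 10 nearest protein-coding loci of each gene, 5 on either side, 5 had a probe set of their own for AT3G16670, 2 for AT3G05730 and 5 for AT2G41090. Of these 12 neighbours, AT3G16660 was the sole member that passed in limma, and 6 differences were negative and 6 positive. At an unadjusted p under 0.05 there were 4 of the 12, beside 19.9% of all probe sets.

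Around AT3G16670, the locus on the other side, AT3G16680, was near background. SWEET16, a vacuolar sugar transporter gene, was at 998 and 1122 units in the controls against 1465 and 1168 in jaw-D (0.24, adjusted p 0.443 in limma). AT3G16700 was at 1603 and 1165 against 1264 and 1028 units (-0.21, adjusted p 0.584). KINESIN-13A, a microtubule motor gene, was at 4802 and 4665 against 4791 and 4782 (0.02, adjusted p 0.947). Besides AT3G16660, the measured genes around AT3G16670 had differences in both directions.

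Next to AT3G05730 in gene order, the helicase gene RECQI1 was at 312 and 482 units in the controls against 563 and 400.4 in jaw-D (0.17, adjusted p 0.707 in limma). AT3G05760, at the fifth place after it, was at 4325 and 5167 against 5556 and 5991 units (0.27, adjusted p 0.23). Both differences were positive, while AT3G05730 was lower. The locus AT3G05727, listed as defensin-like and directly before it, was not analysed here by name.

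AT2G41090 is followed in gene order by TCH3 and, after a further locus, by CAM2. Both are on the list of calmodulin and calmodulin-like loci, and neither was analysed here by name. On the other side of AT2G41090, AT2G41080 was at 1384 and 1264 units in the controls against 1171 and 1363 in jaw-D (-0.05, adjusted p 0.887 in limma). EEL, a bZIP transcription factor gene, was at 735 and 563 against 575 and 562 (-0.12, adjusted p 0.745 in limma). AT2G41060 differed by 0.05 and AT2G41050 by 0.15, neither passing. AT2G41120, at the fourth place after AT2G41090, was at 1576 and 1636 against 1152 and 791 units (-0.60, adjusted p 0.125 in limma), without overlap between the groups. It passed when dim probe sets were left out before the fit (adjusted p 0.0214 in limma).

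**Figure D4:**
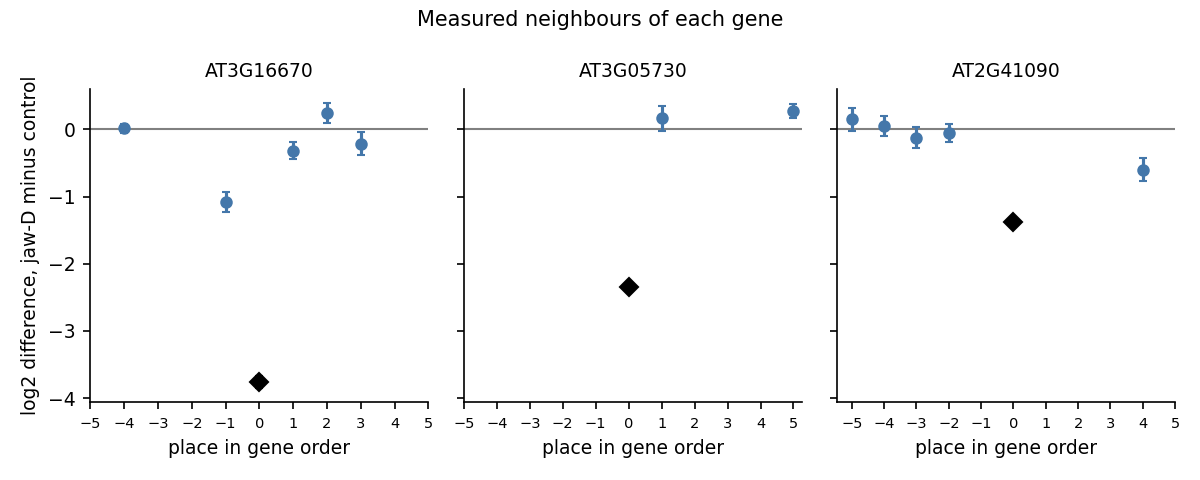
Log2 difference (jaw-D minus control, error bars ± SE from limma, 2 arrays a group) of each gene (black, at place 0) and of its measured neighbours (blue) by their place in gene order. AT3G16660, at place -1 beside AT3G16670, is at -1.08, and the other blue points lie between -0.60 and 0.27.

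The genes with the most similar profiles were sought among the 13513 probe sets with a single gene. They were found by the root mean square distance between log2 values over the 4 arrays, after each gene was centred on its own mean. A profile over 4 arrays in 2 groups holds little beyond the size of the group difference, so nearness here mainly says that a gene fell by a similar amount. For AT3G05730 the nearest was AT5G18600, at a distance of 0.05. It was at 8515 and 7709 units in the controls against 1259 and 1395 in jaw-D, a difference of -2.37. RR16, a response regulator of cytokinin signalling, came next at a distance of 0.10 (5346 and 5861 against 1001 and 923 units, a difference of -2.22), and then AT1G31690, AT2G29290 and AT3G60420 at 0.10, 0.13 and 0.19.

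For AT2G41090 the 5 nearest were within 0.10. AT3G51660 was at 3199 and 3231 units against 1019 and 1142, and AT3G28220 at 1623 and 1882 against 545 and 551. MSRB6, a methionine sulfoxide reductase gene, was at 4617 and 4853 against 1689 and 1477 units. AT1G11850 was at 11166 and 13872 against 4666 and 4788, and LHCB4.3, a light-harvesting antenna gene, at 23272 and 20577 against 7797 and 7986. Their log2 differences lay between -1.44 and -1.27, on either side of that of AT2G41090.

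No profile among the single-gene probe sets lay as close to AT3G16670. Its nearest, AT2G29290, was at a distance of 0.60, with 10338 and 9433 units in the controls against 1402 and 1393 in jaw-D (a log2 difference of -2.58). The next were both probe sets of AT1G31690, at 0.61 and 0.69, which were at 6382 and 6247 against 787 and 870 units, and at 1698 and 2266 against 185 and 65.9. AT5G18600 and AT3G05730 followed, at 0.71 and 0.72. The log2 differences of these nearest profiles ran from -2.58 to -2.34, against -3.76 for AT3G16670. AT3G16670 had the largest fall of the single-gene probe sets and was chosen for its fall. The lack of a near profile therefore follows largely from the choice.

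**Figure D5:**
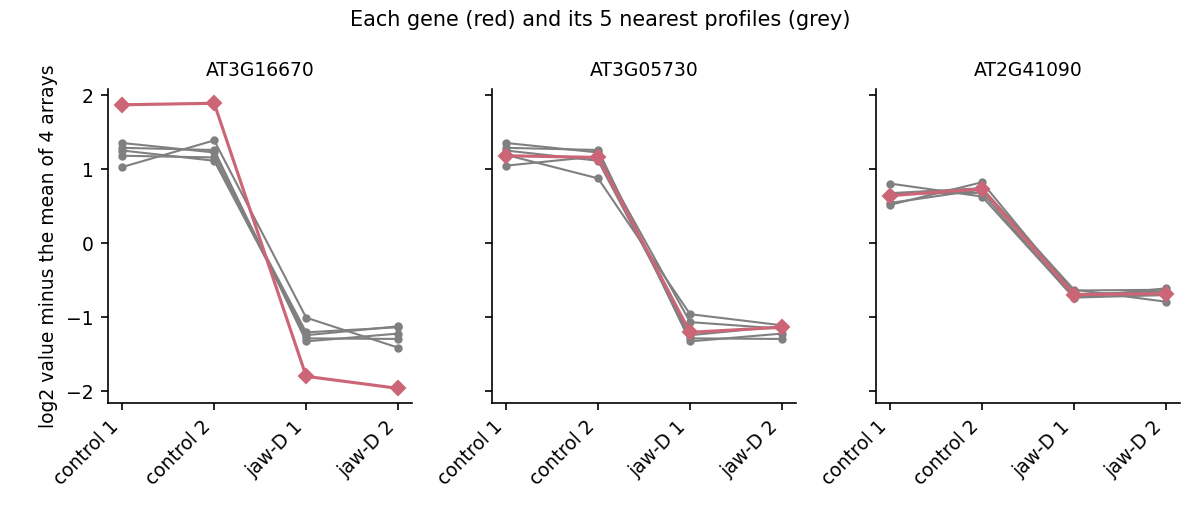
Log2 values of each gene (red) and of its 5 nearest profiles (grey) on the 4 arrays, each centred on its own mean over the arrays. Grey lines overlie the red line for AT3G05730 and AT2G41090. For AT3G16670 the red line starts higher and ends lower than the grey lines, whose distance from it is 0.60 to 0.72. AT3G16670 was chosen for its fall, the largest of the single-gene probe sets, so this distance follows largely from the choice.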

How the data were processed

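The deposited values are linear microarray intensities, with 1 value for each probe set on an array; which software made them and on which genome build is not given in the sources used. Their mean after trimming 2% at each end was 2500.2 on each array, so the authors had brought the arrays to a common level before they were deposited. The highest array median exceeded the lowest by 11.0%, over a limit of 10% set for quantile normalization, which was applied to 22746 probe sets after 64 control probe sets were left out. Values were taken as log2(value + 302.3). Tests were two-sided, with limma 3.58.1 in R 4.3.3 (lmFit, eBayes with a mean-variance trend, 2 residual degrees of freedom), with Benjamini-Hochberg adjustment across the 22746 probe sets. The number of arrays limits the precision.

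Names came from the platform annotation, matched to the TAIR10.1 gene table, which was used for names and gene order only: 13513 probe sets had 1 gene (13436 matched by gene identifier), 503 several and 8730 none. A probe set unnamed here was not analysed by name. The 3 genes and the family lists were chosen with earlier results of these data known. The genes named are these 3, their measured neighbours within 5 loci on either side, list genes that passed with up to 4 others of smallest p, AT2G43535 (chosen after its values were seen), the 5 nearest profiles of each gene and the measured markers. Alternatives were other normalizations and pseudocounts, no variance trend, no dim probe sets, each array left out and a replicate block. The fit was also run on simulated data with normal noise whose SD followed the trend with the mean. That setting leaves out differences in spread between genes, so it does not show how the fit behaves on these arrays. Sequences were not used here.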

Additional observations from a re-analysis of the deposited data

How the results depend on the processing

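The differences of the 3 genes stayed negative under every alternative run. The replicate block, the removal of dim probe sets and the fit without the variance trend could not move them. For AT3G16670, AT3G05730 and AT2G41090 they were -3.87, -2.47 and -1.55 when arrays were centred on their medians, and -3.10, -2.17 and -1.31 at 4 times the pseudocount; at 0.1 times, the first 2 were -4.06 and -2.40, and as deposited AT2G41090 was at -1.46. With 1 array left out they ranged from -3.87 to -3.71, -2.40 to -2.30 and -1.41 to -1.32.

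The counts over all probe sets, 374 higher and 578 lower, were less stable. They were 248 and 978 with arrays centred on the median (20.2% of calls higher, against 39.3%), and 14 and 51 without the variance trend. With dim probe sets left out, which leaves 16439 to test, they were 1002 and 1150. The replicate block gave 157 and 309. With 1 array left out, 0 were higher and 0 to 12 lower in limma: leaving out either control array gave 0 lower, leaving out the first jaw-D array gave 12 and the second 11, with 1652 to 2216 higher and 1695 to 2165 lower at an unadjusted p under 0.05.

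The family counts were small and followed. Without the variance trend, 0 genes passed in each list in either direction. With 1 array left out, a group holds 1 array and almost no probe set of the series passes, so list counts are not read there. Calmodulin-like genes lower numbered 0 as deposited, at 4 times the pseudocount and with the replicate block, and 2 were higher without dim probe sets. Ole e 1-like genes higher numbered 0 as deposited, centred on the median and with the replicate block, and 4 were lower without dim probe sets. Defensin-like genes lower numbered 2 at 0.1 times the pseudocount, and 3 were lower and 1 higher without dim probe sets. The cause of these shifts was not tested.

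Small differences that did not pass changed sign in 5 neighbours. KINESIN-13A was at -0.0398 centred on the median and AT2G41080 at 0.0471 as deposited, and with 1 array left out KINESIN-13A ranged from -0.00437 to 0.0337, RECQI1 from -0.00836 to 0.343, AT2G41060 from -0.115 to 0.21, EEL from -0.252 to 0.00951 and AT2G41080 from -0.141 to 0.0349. The replicate numbers do not pair the samples by the labels, and deviations of same-numbered arrays correlated at -0.02 across probe sets. Each replicate number occurs once in each group, so the replicate block cannot change a group difference. The 3 differences under it, -3.76, -2.34 and -1.38, were therefore fixed in advance. No list gene had several probe sets, so averaging them was not run. With 2 arrays a group, genes near background and those unnamed here set the limit on what the lists can show.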
